A study of Mus musculus with 10 samples.

Results

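The adherens and tight junction genes of tumour lymphatic endothelium described here are Cdh5, Pecam1, Cldn5, Esam, F11r, Jam2, Jam3, Tjp1, Cgnl1 and Ctnnb1. They were chosen by name, and each was found in 1 row, so they are 10 of 23510 rows of the deposited gene table. All 10 had enough counts to be tested, among 16240 tested genes. Lymphatic endothelial cells (LEC) were isolated by fluorescence-activated sorting from MT-ret melanomas, which had grown from tumour fragments placed on the ventral flank of C57BL/6N mice. The mice received control IgG or anti-Ang2 by intraperitoneal injection and were killed 12 h later. Anti-Ang2 is an antibody to angiopoietin-2, which endothelial cells release and which binds their receptor Tie2. Both groups carried the same kind of tumour and differed, per the labels, only in the antibody. Each group had 5 mice with 1 library per mouse, made from 0.5 ng of RNA, so n = 5 per group unless a library was left out. The age and sex of the mice, the antibody dose and the sorting gates were not stated in the labels.

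Endothelial cells are held together by adherens junctions and tight junctions. In adherens junctions, VE-cadherin binds the same protein on the neighbouring cell and is anchored to actin through catenins. In tight junctions, claudins and junctional adhesion molecules span the membrane and are bound inside the cell by scaffold proteins of the zonula occludens and cingulin families. In initial lymphatic vessels these proteins are known to form discontinuous, button-like contacts through which fluid and cells enter, whereas collecting vessels have continuous, zipper-like junctions. Angiopoietin signalling through Tie2 is known to act on junctions in both blood and lymphatic vessels.

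RefSeq promoters (GRCm38.p6, 250 bases before to 50 bases after the annotated start) were listed for 5 of the 10 genes: Cldn5, F11r, Tjp1, Cgnl1 and Ctnnb1, the last with 2 starts. The sequences of Cgnl1 and F11r are shown because these were the members that passed the test, Cldn5 because it was the most abundant member, and Tjp1 because its level was nearly equal in both groups. Each is written 5′ to 3′ on the strand of its gene, and capitals mark GGAA on either strand (TTCC where it lies on the other strand), the core of sites bound by ETS factors, the family of Erg and Elk3.

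Cgnl1 (chr9:71771553-71771852, minus strand): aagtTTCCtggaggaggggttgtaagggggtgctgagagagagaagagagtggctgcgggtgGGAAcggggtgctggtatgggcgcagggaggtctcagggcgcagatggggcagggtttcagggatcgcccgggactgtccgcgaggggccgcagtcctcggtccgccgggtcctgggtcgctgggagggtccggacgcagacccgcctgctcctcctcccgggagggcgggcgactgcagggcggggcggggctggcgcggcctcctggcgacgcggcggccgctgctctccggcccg
F11r (chr1:171437311-171437610, plus strand): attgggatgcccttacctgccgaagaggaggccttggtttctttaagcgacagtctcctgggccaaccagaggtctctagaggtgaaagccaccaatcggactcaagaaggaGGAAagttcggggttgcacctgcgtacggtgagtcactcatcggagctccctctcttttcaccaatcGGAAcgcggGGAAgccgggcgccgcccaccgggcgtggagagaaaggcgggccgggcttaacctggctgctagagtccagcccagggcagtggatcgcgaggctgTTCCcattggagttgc
Cldn5 (chr16:18776597-18776896, plus strand): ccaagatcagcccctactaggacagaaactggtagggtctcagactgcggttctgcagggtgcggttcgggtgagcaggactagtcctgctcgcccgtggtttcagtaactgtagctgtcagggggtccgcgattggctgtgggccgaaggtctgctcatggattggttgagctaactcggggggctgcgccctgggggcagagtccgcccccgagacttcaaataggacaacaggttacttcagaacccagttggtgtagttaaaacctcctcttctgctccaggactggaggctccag
Tjp1 (chr7:65371195-65371494, minus strand): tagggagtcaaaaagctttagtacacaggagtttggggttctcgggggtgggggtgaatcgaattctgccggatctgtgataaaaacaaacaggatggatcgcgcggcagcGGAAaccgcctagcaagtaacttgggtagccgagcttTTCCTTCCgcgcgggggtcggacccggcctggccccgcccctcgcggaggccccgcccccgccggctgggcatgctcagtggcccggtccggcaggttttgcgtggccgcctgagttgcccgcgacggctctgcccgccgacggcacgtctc

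The core occurred 4 times in the F11r window, 3 times in that of Tjp1 and 2 times in that of Cgnl1, and these letters were not in the Cldn5 window. The 2 Ctnnb1 windows overlap and held 4 and 2, and the 2 of the later window are among the 4 of the other. The background was 32851 promoters of this length, with 1 chromosome left out. Of these, 96.0% held at least 1 such core on either strand, with a median of 3. The letters CACCC, the core of sites bound by Kruppel-like factors, were found on either strand 3 times for Cgnl1, 2 times each for Cldn5 and Tjp1 and not in the F11r window. Of the background promoters, 57.5% held them. G and C made up 73.3% of the Cgnl1 window, 60.3% of that of F11r, 58.3% of that of Cldn5 and 65.3% of that of Tjp1. The median over the background promoters was 52.7%. No binding was measured, and a match of letters is not a bound site.

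Libraries held from 38090900 to 83850300 gene counts, to 6 digits, and 19201 to 21215 genes were detected in each. On the first principal component of log2 CPM, the IgG libraries lay from -72.4 to -7.33. Anti-Ang2 5 was within this range, at -25.0, and the other anti-Ang2 libraries lay from 21.3 to 65.4. Anti-Ang2 5 also stood apart on the second component (102.5 against -35.7 to 34.1 in the other libraries). Anti-Ang2 4 stood apart on the third (75.8 against -44.1 to 41.9). The limma quality weights of anti-Ang2 5 and 4 were the lowest, 0.417 and 0.606. The defining markers of LEC were present in every library: per deposited FPKM, Prox1 ranged from 122 to 175, Lyve1 from 1545 to 2206, Pdpn from 104 to 171 and Flt4 from 258 to 457 over the 10 libraries. Markers of other cells were also counted. The summed CPM of 12 melanoma markers, none of them at 0 in any library, ranged from 270 to 1870 in IgG and from 1131 to 5642 in anti-Ang2 libraries, and Dct alone made up 62.6% of this sum. The sum of 15 macrophage markers ranged from 27.5 to 195 in IgG and from 43.1 to 285 in anti-Ang2 libraries, with Adgre1, Itgam, Fcgr1, Ptprc and Ccr2 at 0 in at least 1 library. Of the 12 melanoma markers, 1 was higher and 0 lower (edgeR, adjusted p under 0.05). All 12 had a log2 fold change above 0, with a median of 1.75. Of 13 tested macrophage markers, 0 were called, and all had a log2 fold change above 0 (median 1.35). The sum of 12 blood endothelial markers, of which Plvap made up 74.5%, ranged from 3521 to 5773 in IgG and from 2512 to 5106 in anti-Ang2. Of these 12 genes, 2 were higher and 0 lower (edgeR, adjusted p under 0.05). A log2 fold change below 0 was found in 4 of the 12, with a median of 0.11, so the sum mainly followed Plvap. The 10 LEC markers summed to 17548 to 20850 in IgG and 14008 to 19009 in anti-Ang2, with Mmrn1 making up 34.1%. Taken singly, 4 of these 10 markers were lower and 0 higher (edgeR, adjusted p under 0.05), 8 had a value below 0 (median log2 fold change -0.36), and in 5 every anti-Ang2 library was below every IgG library. Their part in the results on junction genes was not tested. Of 9 epithelial markers, 8 were in the table, summed to at most 8.65 CPM, and were each at 0 in at least 1 library.

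Per length, the 10 genes spanned more than 2 orders of magnitude. Deposited FPKM, averaged over the 10 libraries, was 1074 for Cldn5, 329 for F11r, 220 for Pecam1, 206 for Ctnnb1, 87.3 for Esam, 79.3 for Cdh5, 26.2 for Tjp1, 12.5 for Cgnl1, 6.75 for Jam2 and 5.80 for Jam3. Cldn5 ranked first in every library, at 3.26 times the mean FPKM of F11r, and exceeded 99.9% of tested genes in FPKM. F11r ranked second and Tjp1 seventh in every library. Pecam1 and Ctnnb1 traded places, with Pecam1 above in 6 of 10 libraries, and so did Esam and Cdh5, with Esam above in 6 of 10. Cgnl1 was above Jam2 in 8 libraries and Jam2 above Jam3 in 8, so the order of these 3 did not hold in every library. Jam3 exceeded 55.8% and Jam2 59.3% of tested genes.

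**Figure D1:**
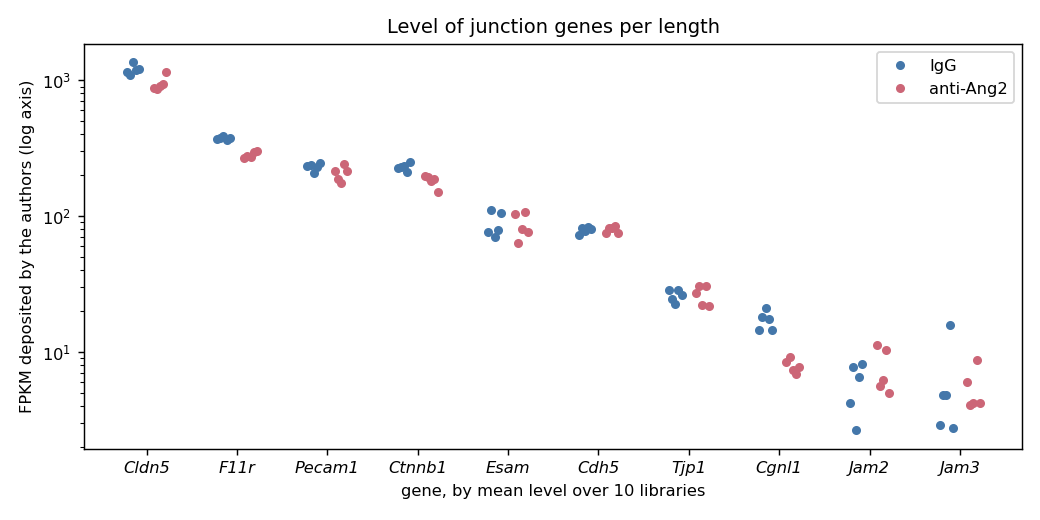
FPKM of each junction gene (vertical log axis, as deposited by the authors), with 1 point per library and IgG and anti-Ang2 libraries side by side. Cldn5 is highest, at a mean of 1074 FPKM, and Jam3 is lowest, at 5.80, and only F11r, Cgnl1 and Ctnnb1 have 2 groups of points that do not overlap.

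After the antibody against Ang2, Cgnl1 fell to 45.7% and F11r to 74.2% of their IgG level, while Cdh5, which encodes VE-cadherin, remained at 99.7% (95% interval 88.6% to 112%). Of the 10 junction genes, 2 were lower and 0 higher by the edgeR quasi-likelihood test at a Benjamini-Hochberg adjusted p under 0.05, a threshold that 2.80% of the 16240 tested genes passed as lower and 1.34% as higher. The fold change was negative for 8 of 10, with a median log2 fold change of -0.20 against 0.01 over all tested genes. In 3 genes (Cgnl1, F11r and Ctnnb1) every anti-Ang2 library was below every IgG library, which was so for 3.76% of tested genes, and in 0 genes were all anti-Ang2 libraries above, against 2.34%. An unadjusted p under 0.05 was reached by 4 genes, the called pair with Cldn5 and Ctnnb1, all of them lower, against 18.2% of tested genes in either direction and 9.10% that were lower. DESeq2 and limma-voom with sample quality weights each counted these 4 genes as lower at an adjusted p under 0.05, against 5.94% and 4.80% of the genes they tested. These numbers are small, and members were not drawn at random from the table, so the shares are a description. The members also had a smaller median SE of the log2 fold change, 0.11 against 0.20 over all tested genes. In bulk RNA of sorted cells, less RNA of a gene per cell and fewer cells that carry it cannot be told apart.

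**Figure D2:**
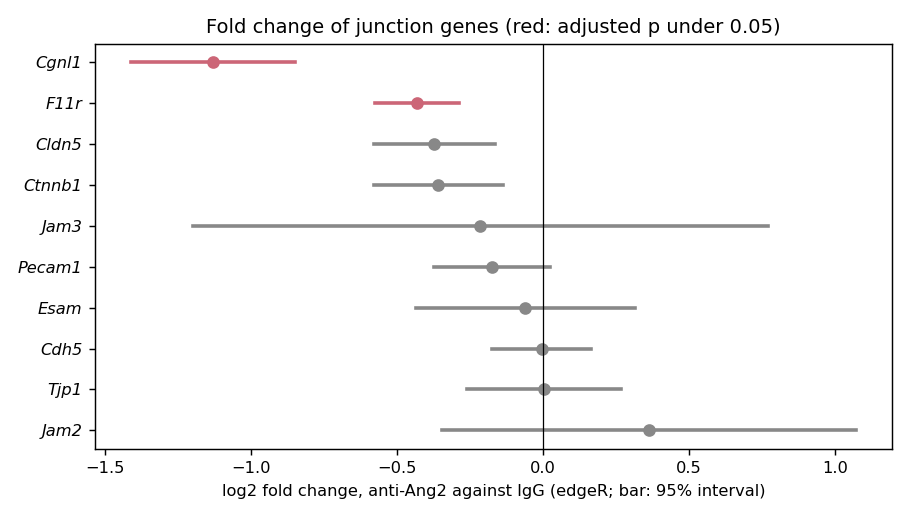
Log2 fold change of each junction gene, anti-Ang2 against IgG (edgeR, n = 5 per group), with its 95% interval as a bar, and genes with an adjusted p under 0.05 in red. Cgnl1 (-1.13) and F11r (-0.43) are red, the intervals of Cldn5 and Ctnnb1 lie below 0 without passing the adjusted threshold, and those of the other 6 genes include 0.

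The RNA of Cdh5 did not differ between the groups beyond their spread. This gene encodes VE-cadherin, the transmembrane cadherin of endothelial adherens junctions, and the protein was not measured. Cdh5 was at 286, 335, 318, 331 and 343 CPM in the IgG libraries and at 300, 350, 333, 332 and 293 in the anti-Ang2 libraries. CPM here are counts scaled to the library total and by the TMM method, so they compare libraries and not genes of different length. The lowest value was in IgG 1 and the highest in anti-Ang2 2, and the groups overlapped. The means were 323 ± 22.2 CPM (SD, n = 5) and 322 ± 24.1, with a log2 fold change of -0.0047 ± 0.077 (SE, 95% interval -0.17 to 0.17; edgeR adjusted p = 0.984). Cdh5 lies at chr8:104101625-104144511 (mm10, plus strand, 13 merged exons in GENCODE M21).

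Pecam1 encodes PECAM-1 (CD31), an immunoglobulin-family adhesion protein found along endothelial contacts and used to sort endothelial cells. Its level was 1386, 1457, 1260, 1353 and 1554 CPM in IgG and 1285, 1193, 1058, 1410 and 1258 in anti-Ang2 libraries. Anti-Ang2 3 was lowest and IgG 5 highest, while anti-Ang2 4 lay above 3 IgG libraries. Pecam1 had a log2 fold change of -0.18 ± 0.091 (SE, 95% interval -0.38 to 0.02), and the difference did not pass the test (edgeR adjusted p = 0.348).

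Cldn5 encodes claudin-5, the main barrier-forming claudin of endothelial tight junctions, from a single exon at chr16:18776847-18778262 (mm10, plus strand). It was at 1544, 1503, 1876, 1606 and 1744 CPM in IgG and at 1175, 1234, 1235, 1230 and 1519 in anti-Ang2 libraries. The first 4 anti-Ang2 libraries lay close together and below every IgG library, and anti-Ang2 5 lay between IgG 2 and IgG 1, so the groups overlapped by 1 library. Means were 1655 ± 154 and 1279 ± 137 CPM (SD, n = 5), 77.3% of the IgG level. The log2 fold change of -0.37 ± 0.094 (SE, 95% interval -0.58 to -0.17) just missed the threshold in edgeR (adjusted p = 0.0503). It passed with DESeq2 (adjusted p = 0.00429), with limma-voom (0.00975) and in edgeR without anti-Ang2 5 (-0.44 ± 0.081, adjusted p = 0.0140). With the melanoma marker sum of each library as a covariate, the log2 fold change was -0.19 ± 0.11 (edgeR adjusted p = 0.472), and with the macrophage sum -0.25 ± 0.10 (0.363). Anti-Ang2 5 had the smallest melanoma and macrophage sums of its group, and the part of these cells in the difference was not tested beyond these fits.

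F11r encodes JAM-A, a junctional adhesion molecule of endothelial, epithelial and blood cells that binds its own kind across the contact, and it fell. Its level was 928, 985, 1020, 924 and 1006 CPM in IgG and 679, 750, 702, 730 and 746 in anti-Ang2 libraries. The groups were far apart relative to their spread: the highest anti-Ang2 library, 2, was well below the lowest IgG library, 4. With means of 973 ± 44.3 and 721 ± 30.3 CPM (SD, n = 5), F11r had the smallest coefficients of variation of the 10 genes (4.56% and 4.20%). Its log2 fold change was -0.43 ± 0.065 (SE, 95% interval -0.57 to -0.29; edgeR adjusted p = 0.00368), and F11r ranked 138th by p among tested genes. Without any 1 library it ranged from -0.45 to -0.41 with adjusted p from 0.00579 to 0.0153. It no longer passed with a covariate for the melanoma sum (-0.37 ± 0.088, edgeR adjusted p = 0.0912) or the macrophage sum (-0.37 ± 0.077, 0.0622). The gene lies at chr1:171437535-171464603 (mm10, plus strand, 9 merged exons), and its promoter is printed above.

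The related Jam2 and Jam3, which encode JAM-B and JAM-C, were low and varied widely. Jam2 was at 23.2, 44.4, 15.1, 36.3 and 48.2 CPM in IgG and at 63.0, 33.7, 35.2, 56.3 and 27.1 in anti-Ang2 libraries, so the groups overlapped. Its log2 fold change was 0.36 ± 0.32 (SE, 95% interval -0.35 to 1.07; edgeR adjusted p = 0.633). Each library held from 623 to 3682 counts of Jam2, and the coefficient of variation was 41.9% in IgG and 36.3% in anti-Ang2. The source of this spread was not tested. Jam3 was at 8.66, 15.1, 15.04, 48.1 and 8.88 CPM in IgG and at 18.1, 13.2, 12.9, 25.7 and 12.5 in anti-Ang2 libraries. IgG 4 was more than 3 times as high as any other IgG library, and the 2 groups overlapped. The log2 fold change of Jam3 was -0.22 ± 0.45 (SE, 95% interval -1.20 to 0.77; edgeR adjusted p = 0.868), and without IgG 4 it was 0.47 with no call either. In GENCODE M21, 36.2% of the exon bases of Jam3 are shared with an antisense gene, and with a kit that does not mark the strand reads from the 2 cannot be told apart. The antisense gene had no row in the deposited gene table, and its part in the Jam3 counts was not tested.

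Esam encodes ESAM, an adhesion protein of the same family that is restricted mainly to endothelium and platelets. It was at 206, 309, 195, 216 and 307 CPM in IgG and at 284, 186, 222, 287 and 203 in anti-Ang2 libraries. IgG 2 and 5 and anti-Ang2 1 and 4 were high and the other 6 libraries low, without regard to treatment. For Esam, the log2 fold change was -0.061 ± 0.17 (SE, 95% interval -0.44 to 0.31; edgeR adjusted p = 0.903).

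Inside the cell, Cgnl1 showed the greatest difference of the 10 genes. It encodes paracingulin (cingulin-like 1), a coiled-coil protein of the junction plaque that binds the zonula occludens scaffold. It was at 108, 137, 160, 130 and 115 CPM in IgG and at 63.3, 72.7, 55.3, 49.8 and 56.6 in anti-Ang2 libraries. Every anti-Ang2 library was below every IgG library, with a wide gap between anti-Ang2 2 and IgG 1. Means were 130 ± 20.5 and 59.5 ± 8.77 CPM (SD, n = 5), from 2219 to 11383 counts per library. The log2 fold change was -1.13 ± 0.13 (SE, 95% interval -1.41 to -0.85; edgeR adjusted p = 0.00111), which ranked 30th by p among tested genes. Leaving out 1 library in turn gave -1.21 to -1.04. Cgnl1 also passed when the fit held the melanoma sum (-1.18 ± 0.18, edgeR adjusted p = 0.0228) or the macrophage sum (-0.98 ± 0.15, 0.0224). With both, a fit chosen after seeing the data, it was -1.07 ± 0.19 with an adjusted p of 0.0893 (edgeR). The gene lies at chr9:71626509-71771602 (mm10, minus strand, 20 merged exons), and its promoter is printed above.

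Tjp1, which encodes the scaffold ZO-1 that links claudins and junctional adhesion molecules to actin, did not share this difference. It was at 210, 188, 173, 212 and 206 CPM in IgG and at 203, 242, 168, 220 and 158 in anti-Ang2 libraries. Both the highest and the lowest value were in anti-Ang2 libraries, so the IgG values lay within the range of the other group. Tjp1 had a log2 fold change of 0.0026 ± 0.12 (SE, 95% interval -0.26 to 0.27; edgeR adjusted p = 0.994).

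Ctnnb1 encodes beta-catenin, which ties cadherins to the actin-binding catenins and also acts as a transcriptional coactivator in Wnt signalling. It was at 1115, 1166, 1196, 1041 and 1303 CPM in IgG and at 975, 1029, 902, 909 and 724 in anti-Ang2 libraries. All anti-Ang2 libraries were below all IgG libraries, but anti-Ang2 2 and IgG 4 lay nearly level, and anti-Ang2 5 was lowest. The log2 fold change was -0.36 ± 0.10 (SE, 95% interval -0.58 to -0.14), 78.0% of IgG, and it did not pass in edgeR (adjusted p = 0.0756; 0.0631 to 0.168 without any 1 library). DESeq2 (adjusted p = 0.0165) and limma-voom (0.0358) called it. Of the Ctnnb1 exon bases, 15.1% are shared with a microRNA gene and with Ulk4 on the other strand, for which a library held 12 to 99 counts against at least 28377 of Ctnnb1.

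**Figure D3:**
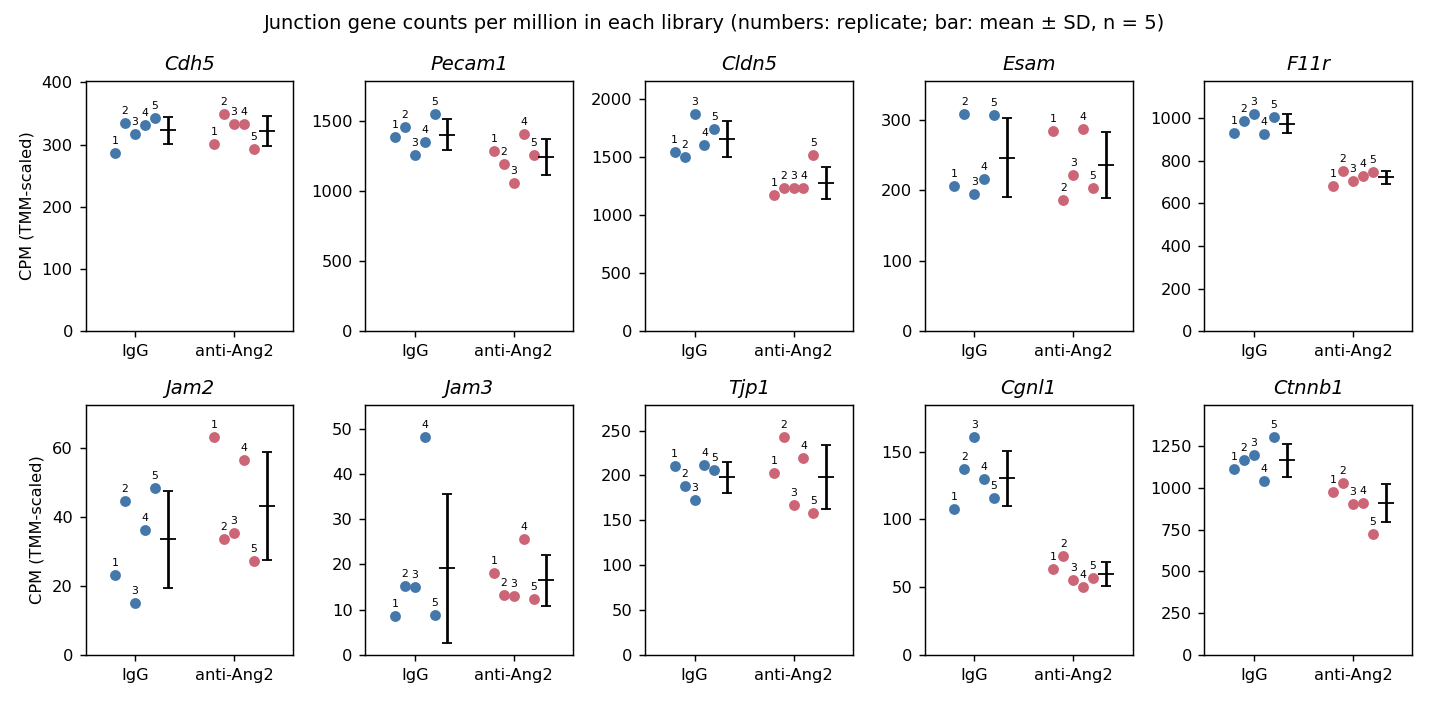
TMM-scaled CPM of each junction gene, 1 panel per gene, with a point per library, the mean and the SD of each group (n = 5). Cgnl1, F11r and Ctnnb1 have groups that do not overlap, Cldn5 has 1 anti-Ang2 library within the IgG range, and in Cdh5, Esam, Jam2, Jam3 and Tjp1 the groups lie over each other.

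The authors' deposited table gave the same order at the top. Its log2 fold change was -1.08 for Cgnl1 (adjusted p = 6e-13), -0.41 for F11r (5.65e-12), -0.33 for Cldn5 (0.00514) and -0.31 for Ctnnb1 (0.0194). In the authors' deposited table Cdh5 was at 0.0021 (adjusted p = 0.990) and Tjp1 at 0.0079 (0.983), and Pecam1, Esam, Jam2 and Jam3 had adjusted p of 0.334 to 0.941.

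**Figure D4:**
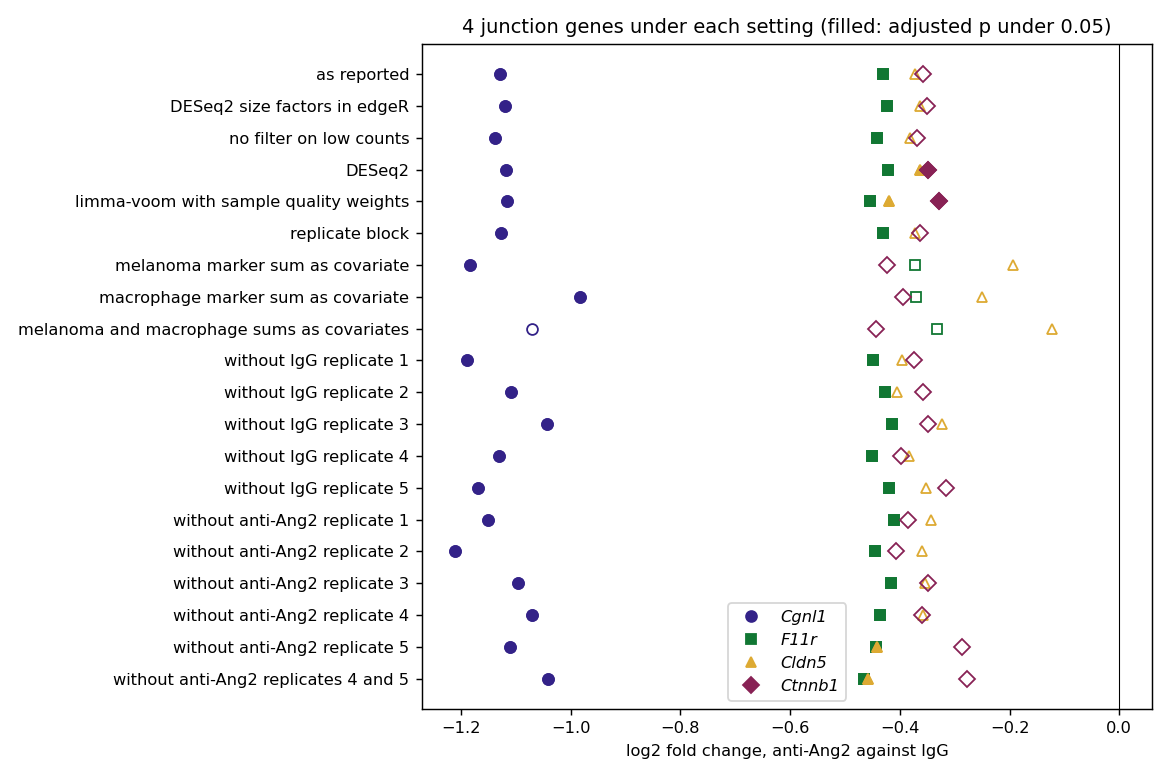
Log2 fold change (horizontal axis, anti-Ang2 against IgG) of Cgnl1, F11r, Cldn5 and Ctnnb1 under each processing setting (rows), with filled symbols where the adjusted p was under 0.05. All 4 genes stay below 0 in every setting shown, F11r is open with the marker covariates, and Cldn5 and Ctnnb1 are filled with DESeq2 and limma-voom.

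The genes were also set against Cdh5 within each library, which removes the scaling between libraries. This comparison was chosen after seeing the data and is a description without a test. For Cgnl1 the log2 ratio to Cdh5 averaged -1.32 ± 0.21 over IgG and -2.44 ± 0.22 over anti-Ang2 libraries (SD, n = 5), with no overlap. For F11r the ratio was 1.59 ± 0.093 and 1.17 ± 0.11, again with no overlap. The groups overlapped for Ctnnb1 (1.85 ± 0.13 and 1.49 ± 0.15), Cldn5 (2.36 ± 0.15 and 1.99 ± 0.22) and the other 5 genes. The difference between the groups was -0.17 for Pecam1, -0.05 for Esam, 0.42 for Jam2, 0.05 for Jam3 and -0.01 for Tjp1. With Pecam1 in place of Cdh5, the differences were -0.95 for Cgnl1, with no overlap, and -0.25 for F11r, with overlap. As a share of all counts in a library, the 10 genes together took 0.593% to 0.635% in IgG and 0.475% to 0.544% in anti-Ang2 libraries.

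No pair of the 10 genes had a correlation within the groups that passed adjustment over the 45 pairs. Over the deviations of the 10 libraries from their group means (log2 CPM), Esam and Jam2 had Pearson r = 0.88 (exact permutation within groups, p = 0.00576) and Spearman rho = 0.84 (exact permutation p = 0.0103). Without the 2 libraries farthest from the median of Esam, r was 0.83. This pair had adjusted p of 0.259 by Pearson and 0.463 by Spearman, and 3 pairs in all had an unadjusted p under 0.05 by Pearson. Jam3 was not among them, with r = 0.27 with Jam2 and 0.05 with Esam. The others were Pecam1 with Esam (r = 0.71, rho = 0.72, exact permutation p = 0.0319 and 0.0311) and Pecam1 with Jam2 (r = 0.67, rho = 0.66, exact permutation p = 0.0399 and 0.0528). Their adjusted p were 0.599 by Pearson for both pairs and 0.700 and 0.781 by Spearman, and without the 2 farthest libraries r was 0.83 and 0.78.

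Beyond the 10 members, 149 tested genes of 7 other junction lists held 4 higher and 18 lower genes (edgeR, adjusted p under 0.05), with a median log2 fold change of -0.02. The lower genes were 12.1% of these lists, against 2.80% of all tested genes, and 1.34% of all tested genes were higher. These shares are a description, since the lists were written with earlier results of these data known. The listed genes also had a smaller median SE of the log2 fold change, 0.13 against 0.20 over all tested genes. The counts of the single lists are to be read against these shares. With the melanoma sum as a covariate 2 of them were lower and with the macrophage sum 4, and 0 were higher in either fit. Among 20 other adherens junction genes (median 0.04), Cdh13, which encodes the membrane-anchored T-cadherin, rose from 652 ± 43.9 to 828 ± 55.6 CPM (log2 fold change 0.34 ± 0.076 SE, adjusted p = 0.0282). Jup, the gene of plakoglobin (gamma-catenin), a catenin that can take the place of beta-catenin on cadherins, fell from 1246 ± 104 to 971 ± 86.2 CPM (-0.36 ± 0.087, adjusted p = 0.0425). The alpha-catenin gene Ctnna1 was at 1195 ± 37.7 and 1240 ± 159 CPM (adjusted p = 0.835), and the nectin gene Nectin2 at 945 ± 119 and 760 ± 56.1 (0.101; called without IgG 1). Both calls in this list were near the threshold. Cdh13 was lost without any of 6 single libraries (IgG 2, 3, 4 and 5, anti-Ang2 1 and 4; highest adjusted p = 0.0852) and Jup without any of 8 (all but IgG 4 and anti-Ang2 2; highest 0.117).

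Among 26 tested of 35 listed other tight junction genes (median log2 fold change 0.06), 1 passed, a share near that of all tested genes. Lsr, which encodes angulin-1 of the points where 3 cells meet, fell from 22.2 ± 11.3 to 3.72 ± 1.18 CPM (log2 fold change -2.58 ± 0.41 SE, edgeR adjusted p = 0.00512), with no overlap of the groups. The polarity gene Pard6g was at 1010 ± 154 and 1109 ± 73.5 CPM and did not pass (adjusted p = 0.567).

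Of 22 genes of receptors, kinases, phosphatases and a sheddase that act on VE-cadherin, 6 were lower and 0 higher, with a median log2 fold change of -0.25. Tek, the gene of Tie2, fell from 503 ± 88.7 to 202 ± 38.5 CPM (-1.32 ± 0.16 SE, edgeR adjusted p = 0.00116), and its co-receptor gene Tie1 by 0.51 ± 0.098 on the log2 scale (0.0140). Kdr, the gene of VEGF receptor 2, fell by 0.80 ± 0.14 on the log2 scale (adjusted p = 0.00781). Adam10, the gene of a protease that sheds VE-cadherin and JAM-A from the surface, fell from 634 ± 47.6 to 463 ± 47.4 CPM (-0.45 ± 0.088, edgeR adjusted p = 0.0151). The phosphatase gene Ptpn14 (-0.52 ± 0.10, 0.0164) and Ptk2, which encodes focal adhesion kinase (-0.36 ± 0.079, 0.0280), also fell. In all 6 the groups did not overlap. Without IgG 3, Adam10 and Ptpn14 had adjusted p of 0.0506 and 0.0504, and Ptk2 was lost without any of 6 single libraries (IgG 2, 3 and 5, anti-Ang2 1, 3 and 4; highest 0.0853). The VEGF receptor 3 gene Flt4 was at 3199 ± 379 and 2338 ± 542 CPM, which did not pass (0.115; called without anti-Ang2 2).

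Of 32 genes that regulate junctions through Rap1, the CCM complex and other small GTPases (median log2 fold change -0.01), 3 were lower. Rapgef5, which encodes an exchange factor that activates Rap GTPases, fell from 131 ± 15.8 to 64.5 ± 7.56 CPM (-1.03 ± 0.11 SE, edgeR adjusted p = 8.8e-04), a size close to that of Cgnl1. Ccm2l, a paralogue of the CCM adaptor gene Ccm2, fell from 188 ± 21.6 to 120 ± 22.3 CPM (adjusted p = 0.0164; 0.0522 without IgG 3). The exchange factor gene Vav3 fell from 111 ± 14.5 to 85.3 ± 5.86 CPM (adjusted p = 0.0465) and was lost without any of 8 single libraries (all but IgG 5 and anti-Ang2 5; highest 0.124). The GTPase genes Cdc42 and Rap1b, named as the 2 genes of highest mean FPKM in this list, stayed level in value. Cdc42 was at 747 ± 37.4 and 736 ± 34.4 CPM (edgeR adjusted p = 0.920) and Rap1b at 426 ± 37.0 and 440 ± 33.8 (0.840).

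Among 18 other contact and transmigration genes (median log2 fold change 0.03), 2 were lower and 2 higher. Icam2, the gene of an adhesion molecule that is kept at endothelial contacts, fell from 175 ± 18.5 to 98.1 ± 15.1 CPM (edgeR adjusted p = 0.00218), and Podxl, which encodes the apical sialomucin podocalyxin, from 841 ± 54.6 to 548 ± 74.0 (0.00553). Robo4, a guidance receptor gene of endothelium, rose from 287 ± 61.2 to 425 ± 32.3 CPM (0.0327), and the adhesion receptor gene Adgrl4 from 130 ± 33.7 to 228 ± 42.9 (0.0366). Neither rise was stable, since Robo4 was lost without any of 9 single libraries (all but IgG 5; highest 0.0955) and Adgrl4 without any of 7 (IgG 1 to 4, anti-Ang2 1, 2 and 4; highest 0.0932). The sphingosine 1-phosphate receptor gene S1pr1 was at 1219 ± 37.5 and 1147 ± 59.8 CPM (0.542), and Plvap, the gene of the fenestral diaphragm protein, at 4022 ± 823 and 2216 ± 765 (0.0541; called without IgG 1 or anti-Ang2 4).

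**Figure D5:**
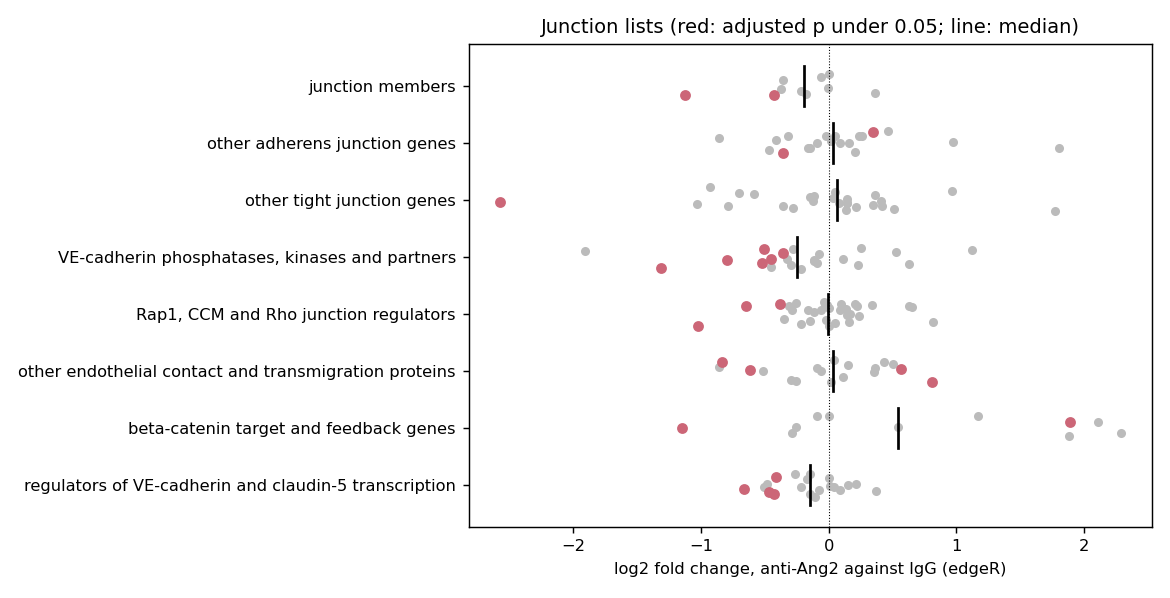
Log2 fold change (anti-Ang2 against IgG, edgeR) of each tested gene in the junction members and in the 7 other junction lists, with 1 point per gene, called genes in red and the median of each list as a line. Lower calls are most frequent in the list of VE-cadherin phosphatases, kinases and partners (6 of 22, median -0.25), and the medians of the adherens and tight junction lists are 0.04 and 0.06.

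The genes downstream of beta-catenin and those upstream of VE-cadherin and claudin-5 were listed as well. Of 11 tested targets and feedback genes of beta-catenin, 1 was higher and 1 lower, with a median log2 fold change of 0.55. The genes of this list were measured less precisely, with a median SE of 0.58 against 0.20 over all tested genes. Nkd1, a feedback inhibitor gene of the Wnt pathway, fell from 21.4 ± 4.97 to 9.65 ± 1.34 CPM (edgeR adjusted p = 0.00561), and Tcf7, the gene of a nuclear partner of beta-catenin, rose from 1.76 ± 1.04 to 6.54 ± 3.18 CPM (0.0419; lost without any of 7 single libraries, IgG 1, 2, 3 and 5 and anti-Ang2 1 to 3, highest 0.112). The commonly cited targets Myc, at 164 ± 23.3 and 164 ± 38.7 CPM (0.996), and Ccnd1, at 125 ± 9.02 and 103 ± 34.3 (0.516), did not pass. Of 20 genes of transcription factors known to act on the Cdh5 or Cldn5 genes (median -0.14), 4 were lower and 0 higher. The ETS factor genes Elk3 (747 ± 79.8 to 471 ± 60.7 CPM, adjusted p = 0.00500) and Erg (62.7 ± 4.56 to 46.7 ± 4.69, 0.0221) fell, as did Epas1, the gene of HIF-2alpha (210 ± 32.7 to 152 ± 13.9, 0.0354), and Gata2 (182 ± 25.7 to 137 ± 8.47, 0.0401). Leaving out 1 library ended the call of Erg in 4 cases (IgG 3 and 5, anti-Ang2 3 and 4; highest 0.0565), of Epas1 in 7 (IgG 2, 3 and 5, anti-Ang2 1, 2, 3 and 5; highest 0.0990) and of Gata2 in 7 (IgG 2, 3 and 5, anti-Ang2 1 to 4; highest 0.110). The SOX factor gene Sox18 was at 887 ± 93.6 and 804 ± 55.5 CPM (0.451) and the flow-responsive Klf2 at 789 ± 170 and 564 ± 109 (0.131).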

How the data were processed

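RNA of LEC sorted from MT-ret melanomas was measured in 10 libraries, 5 per treatment, grouped by the treatment label. The labels give PicoPure extraction of RNA, and cDNA made from 0.5 ng with SMART-Seq v4, which does not mark strand, followed by the NEBNext ChIP-Seq library kit. STAR, featureCounts and DESeq2 were used with mm10, per the submitters' processing notes. The sources used here give no versions, annotation release or strand setting. Raw counts, per the file headers, stand in 1 table for the whole series, and every test was run on them. FPKM deposited by the authors were used only to compare genes per length. The 10 deposited TPM columns were not used. The log2 fold changes and adjusted p-values deposited by the authors are quoted as theirs. There were 0 unmapped columns of values.

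Counts were tested in edgeR 4.0.16 under R 4.3.3, by the two-sided quasi-likelihood F test with TMM scaling, filterByExpr (minimum count 10, total 15) and no factor but treatment, with Benjamini-Hochberg adjustment over 16240 genes at 0.05. Log2 CPM used a prior count of 2. Alternatives were limma 3.58.1 (voom with quality weights), DESeq2 1.42.0, its size factors in edgeR, no filter, a replicate block, marker sums as covariates and leaving out libraries. Correlations used all 14400 within-group rearrangements, two-sided. Python 3.11.15 was also used, with scipy 1.17.1, matplotlib 3.10.9, numpy 2.4.6 and pandas 2.3.3. The fits were tested on simulated data. Coordinates came from GENCODE M21 (mm10), in which 23435 of 23510 gene IDs were found, 19508 in the same version. Those of Cldn5 and Jam2 were matched without the version. Promoters were RefSeq's (GRCm38.p6).

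The series design states independent biological replicates. The mouse numbers in the labels differ between the groups. All pairs of libraries within a group differed by more than sampling noise (the lowest chi-square divided by its degrees of freedom was 58.0, over rows with a summed count of at least 20). This shows that no library repeats the counts of another in its group, and it cannot show that the mice were independent. Reads carry no molecular identifiers, and at these depths the spread between libraries exceeded counting error. A table symbol was shared with another row in 58 rows, none of them a junction gene. The members and lists were chosen with earlier results of these data known. Named were all 10 members and, from each other list, the called genes (at most the 8 of smallest p) and the 2 of highest mean FPKM, of which 1 gene is not reported here. Sums of pericyte markers ranged from 60.7 to 241 CPM in IgG and 153 to 445 in anti-Ang2, with Cspg4 making up 47.7%. Taken singly, 1 of these 9 markers was higher and 0 lower (edgeR, adjusted p under 0.05), and 5 had a log2 fold change below 0 (median -0.23). In the same order, sums of fibroblast markers were 189 to 919 and 203 to 735, of pan-endothelium 5434 to 6983 and 4937 to 5818, of lymphocytes 5.86 to 14.3 and 3.08 to 10.2, and of platelets and erythroid cells 20.6 to 49.9 and 8.94 to 46.6.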

Additional observations from a re-analysis of the deposited data

Results flagged for a closer look

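Some libraries stood apart from the other 4 of their group by Dixon's criterion for 5 values, in 8 of 90 gene and group combinations examined over 45 genes. Chance alone gives about 1 in 20. Among the members, Cldn5 was at 1519 CPM in anti-Ang2 5, against 1175 to 1235 in the other anti-Ang2 libraries, and Jam3 was at 48.1 CPM in IgG 4, against 8.66 to 15.1 in the other IgG libraries. Anti-Ang2 2 was high for Tie1 (1196 CPM, the others 1028 to 1048) and for Flt4 (3282 CPM, the others 1987 to 2310). Vav3 was at 95.6 CPM in anti-Ang2 5, against 81.7 to 84.1. Among IgG libraries, Tcf7 was at 3.60 CPM in IgG 4, against 1.12 to 1.51, Erg at 70.7 CPM in IgG 5, against 59.8 to 62.1, and Epas1 at 266 CPM in IgG 5, against 190 to 211.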

How the results depend on the processing

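Of 45 genes followed through the alternatives, 35 kept their direction under every alternative tried, among them all 24 called genes, and 11 of these 24 also kept their call without any 1 library. In 0 cases was a member called higher. Of the members, 2 were lower in edgeR, 4 with DESeq2 or limma-voom, 1 with the melanoma or the macrophage sum as covariate, 0 with both, and 2 to 3 without 1 library. Over all genes, 217 were higher and 454 lower; DESeq2 gave 810 and 880, limma-voom 670 and 780, the melanoma covariate 24 and 96, the macrophage covariate 31 and 117, both covariates 0 and 7, and leaving out 1 library 82 to 326 and 259 to 468. Without anti-Ang2 4 and 5, 531 genes were higher and 598 lower. In the other junction lists (4 higher, 18 lower), DESeq2 gave 12 and 29, limma-voom 11 and 25, the melanoma covariate 0 and 2, the macrophage covariate 0 and 4, both covariates 0 and 0, leaving out 1 library 0 to 6 and 9 to 19; without the count filter 2 were higher and without anti-Ang2 4 and 5, 7. The cause of these changes was not tested.

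Same-numbered libraries did not deviate together (correlations -0.12 to 0.11, 1 of 5 over 0.1, and 1 of 10 libraries correlated best with its own number). No pairing by number was seen, but 5 pairs cannot exclude a weak one. A replicate block gave 2 lower members, 82 higher and 268 lower genes, and 1 higher and 9 lower genes in the other lists.

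Direction turned only in genes without a call. Cdh5 was at 0.0037 with DESeq2 size factors in edgeR, 0.0049 with DESeq2, 0.039 with the macrophage covariate and 0.0095 without anti-Ang2 4 and 5. Jam2 was at -0.18 with the melanoma covariate and -0.19 with both, and Jam3 at 0.046 with limma-voom and 0.042 with the replicate block. Tjp1 was at -0.0068 without the filter, -0.012 with the block, -0.11 and -0.058 with the melanoma and macrophage covariates and -0.15 with both. Myc, in the same order, was at -0.0064, -0.017, -0.27, -0.034 and -0.27. Cdc42 was at 0.0061 with the melanoma covariate and 0.017 with both, Sox18 at 0.019 with both, and Rap1b at -0.044 without anti-Ang2 4 and 5. Leaving out 1 library gave -0.045 to 0.027 for Cdh5, -0.14 to 0.033 for Esam, -0.43 to 0.47 for Jam3, -0.081 to 0.074 for Tjp1, -0.042 to 0.011 for Cdc42, -0.015 to 0.10 for Ctnna1 and -0.091 to 0.10 for Myc. The lowest count of a member in a library was 347, for Jam3.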
